A study of Mus musculus with 2 samples.

Results

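The Hox gene clusters of the mouse carry miRNA genes of 3 families, miR-10, miR-196 and miR-615, between and inside the genes that encode the Hox transcription factors. The genes described here are Mir10a, Mir10b, Mir196a-1, Mir196a-2, Mir196b and Mir615, chosen by gene name. All 6 were found among the 1973 gene rows of both small RNA count tables, so they are 0.304% of the rows. The series has 1 group: neural tube from healthy mouse embryos of strain B6NCrl at 13.5 days, with male and female embryos pooled. It holds 2 libraries, numbered as biological replicates 1 and 2, from separate tissue samples that share 1 donor entry. The labels name no genotype, treatment or contrast tissue, and they do not say which levels of the body axis the dissected tube covered. The libraries held 7019469 and 5738209 same-strand counts on miRNA genes.

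Hox genes are laid out on the chromosome in the order in which they are used along the body: genes of low paralog number act from the hindbrain downwards, and genes of high number only towards the tail. A miRNA gene inside a cluster is transcribed near, or together with, its Hox neighbours. A miRNA finds its targets mainly through its seed, bases 2 to 8 of the mature strand, and lowers the stability or translation of the mRNAs it pairs with. Some Hox mRNAs are themselves known targets of miR-10 and miR-196.

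The mature strands show what separates these genes and what cannot be separated. They are printed 5′ to 3′ from RefSeq (GRCm38.p6) with the seed in capitals. All 6 genes matched an entry, and the arm shown for miR-615 is the 3p arm.
miR-10a-5p: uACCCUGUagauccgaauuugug
miR-10b-5p: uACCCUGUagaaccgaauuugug
miR-196a-5p: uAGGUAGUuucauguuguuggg
miR-196b-5p: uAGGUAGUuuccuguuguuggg
miR-615-3p: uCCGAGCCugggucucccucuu

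The 6 genes thus carry 3 seeds on these arms. Both miR-10 strands share the seed ACCCUGU, and both miR-196 strands share AGGUAGU. No other mature miRNA of the RefSeq table has the miR-10 seed, the miR-196 seed or the miR-615-3p seed. Counted from the 5′ end, miR-10a-5p and miR-10b-5p differ by the single substitution U12A over 23 nt. MiR-196a-5p and miR-196b-5p differ by A12C over 22 nt. In both families the only difference between paralogs therefore lies at position 12, outside the seed.

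Copy number differs between the families. MiR-196a-5p is encoded by both Mir196a-1 and Mir196a-2, while none of the other mature strands of the 6 genes occurs exactly in another RefSeq hairpin. The search covered these hairpins and not the whole genome, and Mir615 has no hairpin entry among them. The hairpins of the 3 miR-196 genes are printed with the 2 mature arms in capitals, because the second arm is what tells the copies apart.
Mir196a-1: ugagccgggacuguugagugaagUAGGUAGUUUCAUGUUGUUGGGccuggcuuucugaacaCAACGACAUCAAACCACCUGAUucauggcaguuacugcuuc
Mir196a-2: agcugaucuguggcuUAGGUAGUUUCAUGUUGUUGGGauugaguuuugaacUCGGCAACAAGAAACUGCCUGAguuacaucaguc
Mir196b: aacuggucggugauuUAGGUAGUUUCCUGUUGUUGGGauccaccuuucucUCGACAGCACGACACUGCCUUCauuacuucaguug

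The hairpins of Mir196a-1 and Mir196a-2 shared the 22 nt of miR-196a-5p and no base directly before or after it. Their 3p arms had the same base at 5 of 22 positions. The count tables keep multimapping reads apart from all genes, and a full-length miR-196a-5p read has no unique place among these 2 hairpins. The counts of both copies can come from the 3p arm, or from reads that reach past the shared 22 nt. Mir196b is different, since its 5p arm has no exact copy in another hairpin. Of 916 genes of the table with a RefSeq mature sequence, 85 (9.28%) had a mature product that also lies in another hairpin, and Mir196a-1 and Mir196a-2 are among them.

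For the miR-10 pair the hairpins are printed in the same way, because most counts of the 6 genes lie on them.
Mir10a: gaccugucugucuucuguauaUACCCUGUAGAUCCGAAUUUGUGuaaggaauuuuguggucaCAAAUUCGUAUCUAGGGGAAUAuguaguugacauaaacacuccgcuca
Mir10b: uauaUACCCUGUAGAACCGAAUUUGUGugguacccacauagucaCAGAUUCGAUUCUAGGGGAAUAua

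The longest stretch that these 2 hairpins share is 15 nt. Their 3p arms differ by A3G, U9A and A10U, written with the miR-10a base first. A read of either 5p arm with an error at position 12 could be counted on the other gene, and how often this happened was not measured here.

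Each miRNA gene lies on the strand of the Hox genes around it. Mir10a (chr11:96317165-96317274, plus strand, GRCm38) lies in HoxB, 1495 bp before the coding region of Hoxb4 and outside every annotated gene body. Mir10b (chr2:74726070-74726137, plus strand) holds the matching place in HoxD, 1141 bp before the coding region of Hoxd4, inside introns of Hoxd3 and Hoxd4 transcripts. Mir196b (chr6:52230081-52230165, minus strand) lies in HoxA between the coding regions of Hoxa10 and Hoxa9, in an exon of non-coding Hoxa9 transcripts. Mir196a-2 (chr15:102973350-102973434, plus strand) lies in HoxC between Hoxc10 and Hoxc9, within an intron of a non-coding Hoxc5 transcript. Mir196a-1 (chr11:96265164-96265265, plus strand) lies in HoxB between Hoxb13 and Hoxb9, 6276 bp before the Hoxb9 coding region and in no annotated gene. Mir615 (chr15:103014910-103015001, plus strand) lies in an intron of Hoxc5 in HoxC. The miR-10 genes thus sit beside paralog group 4, Mir615 within group 5, and the miR-196 genes on the tailward side of group 9.

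**Figure D1:**
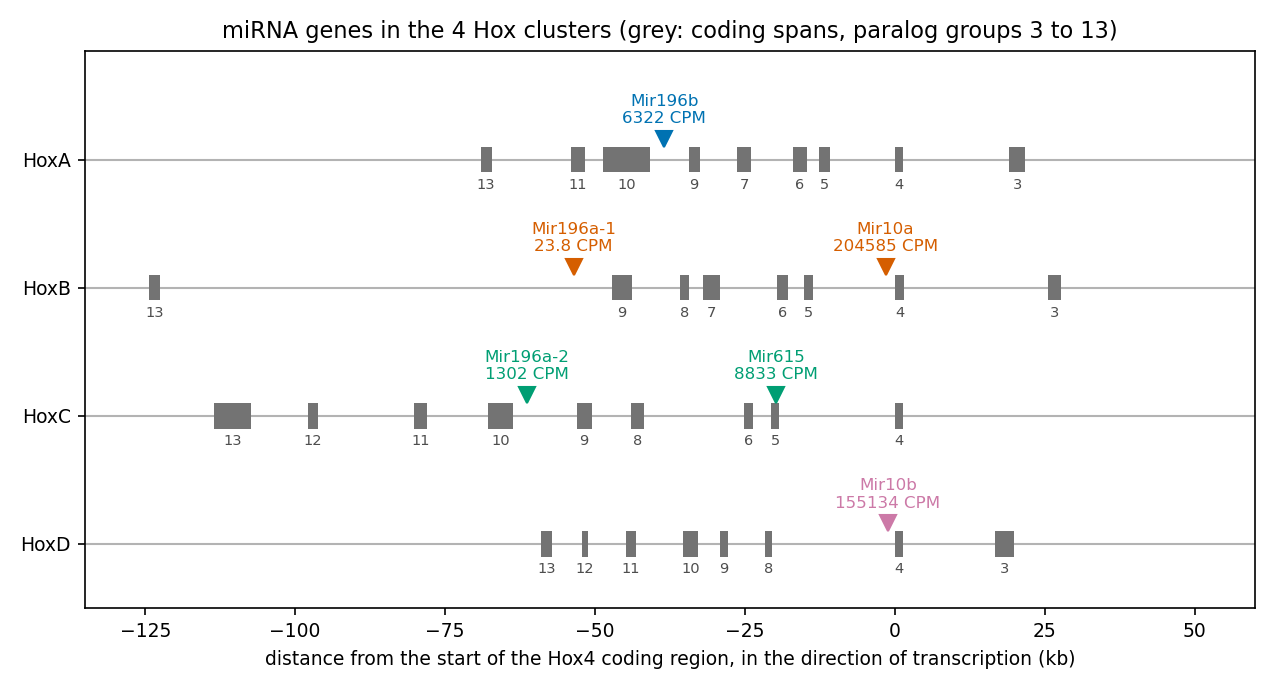
Map of the HoxA, HoxB, HoxC and HoxD clusters, each drawn in the direction of transcription, with the distance in kb from the start of the Hox4 coding region on the x axis. Grey boxes are coding spans of groups 3 to 13 with their number, and triangles are the miRNA genes with their mean CPM of 2 libraries. The genes beside group 4 stand at 204585 and 155134 CPM, and the 3 genes on the tailward side of group 9 at 23.8 to 6322 CPM.

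The 6 genes together held 38.2% of the same-strand counts in replicate 1 (Wilson 95% interval 38.1 to 38.2) and 37.1% in replicate 2 (37.0 to 37.1). Intervals here cover counting error only, as the reads carry no molecular identifiers and may repeat a molecule. Nearly all of this came from the miR-10 pair, at 36.0% ± 0.73 (SD, n = 2) of the counts. The miR-196 genes held 0.765% ± 0.054 and Mir615 0.883% ± 0.087. In bulk tissue, fewer cells that express a gene and less RNA per cell cannot be told apart.

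Levels are given as CPM, the usual counts-per-million scale, taken here over the same-strand counts on all miRNA genes of the library. Mir10a had 1382602 counts in replicate 1 and 1217671 in replicate 2, or 196967 and 212204 CPM, a mean of 204585 ± 10774. It ranked first of all genes in both libraries by these counts. Multimapping reads are left out of them, so genes whose mature strand has several copies can rank too low. Mir10b had 1178722 and 816813 counts, or 167922 and 142346 CPM, a mean of 155134 ± 18085. It ranked second in both libraries, and its higher library lay below the lower library of Mir10a.

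Mir615 had 66332 and 47142 counts, or 9450 and 8215 CPM, and ranked 19 and 22. Mir196b had 40741 and 39254 counts, or 5804 and 6841 CPM, and ranked 25 and 24. The values of these genes did not overlap: the lower library of Mir615 lay above the higher library of Mir196b. They were nevertheless the closest neighbours after the miR-10 pair.

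Mir196a-2 had 10093 and 6695 counts, or 1438 and 1167 CPM, and ranked 69 and 74. Mir196a-1 had 169 and 135 counts, or 24.1 and 23.5 CPM, and ranked 264 and 259. The order Mir10a, Mir10b, Mir615, Mir196b, Mir196a-2, Mir196a-1 was the same in both libraries. On the opposite strand these genes had 0 to 2 counts per library, so the levels do not rest on the choice of strand.

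**Figure D2:**
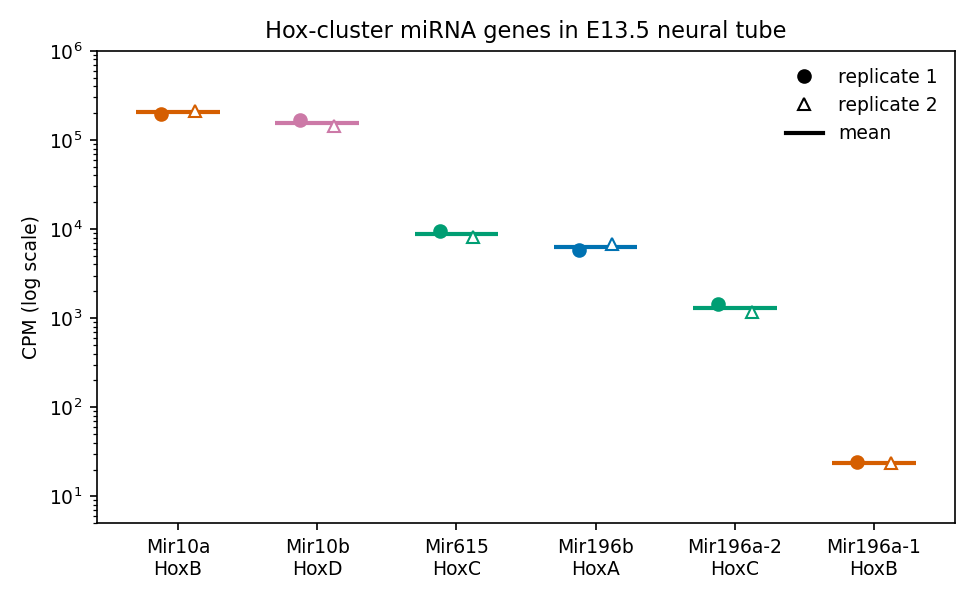
CPM on a log scale for the 6 genes, ordered by mean level and coloured by Hox cluster, with filled circles for replicate 1, open triangles for replicate 2 and a bar at the mean. The libraries lie close together for every gene, and the genes span from 23.8 to 204585 CPM.

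Ratios within a library do not depend on how the libraries are scaled. Mir10b stood below Mir10a by 1.17-fold in replicate 1 (log2 ratio -0.23, exact 95% counting interval -0.23 to -0.23) and by 1.49-fold in replicate 2 (-0.58, -0.58 to -0.57). The mean log2 ratio was -0.40 ± 0.24 (SD, n = 2), so the spread between libraries was much larger than the counting error. The direction was the same in both libraries, and the size of the gap differed between them. The smallest p that an exact two-sided sign-flip test allows with 2 libraries is 0.5, so this test cannot pass a threshold here and the ratios are set beside their SD.

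Although the split between the paralogs moved, their sum hardly did as a part of the 6 genes. The miR-10 pair made up 95.62% of the members' counts in either library. A pair that holds nearly all of a sum can hardly change its part of it, so this value says little about the paralogs. Of all counts, the pair held 36.5% in replicate 1 and 35.5% in replicate 2. Among the 6 genes, HoxB held 51.6% in replicate 1 and 57.2% in replicate 2, and HoxD 44.0% and 38.4%. Each of these clusters rests on its miR-10 gene, since Mir196a-1 adds only 169 and 135 counts to HoxB. HoxC held 2.69% ± 0.23 of the members' counts and HoxA 1.68% ± 0.23.

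Along the clusters, 2 clusters carry a pair of these miRNAs, and in both the member nearer the high-number end had the lower level. In HoxB, Mir196a-1 stood 8181-fold below Mir10a in replicate 1 and 9020-fold below it in replicate 2. In HoxC, Mir615 exceeded Mir196a-2 by 6.57-fold and 7.04-fold, a mean log2 ratio of 2.77 ± 0.070. Summed over clusters, the miR-196 genes stood 50.2-fold and 44.1-fold below the miR-10 genes, a mean log2 ratio of -5.56 ± 0.13. Only uniquely mapped reads enter these ratios, and the miR-196a copies are the members whose 5p reads map to more than 1 place. How far that lowers them was not measured, so the HoxB and HoxC ratios are ratios of counted reads and not of transcripts.

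Within the miR-196 family the counted reads were unequal. Mir196b exceeded Mir196a-2 by 4.04-fold in replicate 1 and 5.86-fold in replicate 2, a mean log2 ratio of 2.28 ± 0.38. This sets a gene whose 5p arm has no exact copy in another hairpin against one whose 5p arm has. The part of that difference in the ratio was not tested. Mir196a-1 stood 59.7-fold and 49.6-fold below Mir196a-2, a mean log2 ratio of -5.77 ± 0.19. The copies share the same 22 nt, so both lose reads from that sequence, and the ratio describes the reads that remain. The bases directly before and after that sequence differ between the copies, and so do most bases of their second arms. The part of its reads that each copy keeps can therefore differ, and it was not measured.

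**Figure D3:**
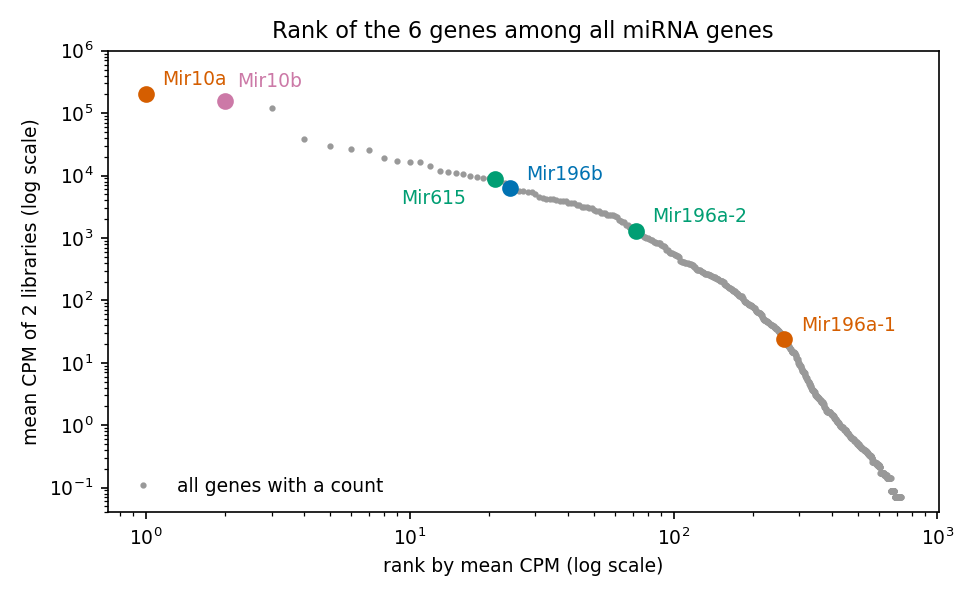
Mean CPM of the 2 libraries against rank by mean CPM for every gene with a count, both on log scales, with the 6 genes as large coloured points. By mean CPM Mir10a and Mir10b hold ranks 1 and 2, Mir615 and Mir196b ranks 21 and 24, Mir196a-2 rank 72 and Mir196a-1 rank 263. Multimapping reads are in no gene count, so the ranks are those of counted reads.

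The genes outside the Hox clusters that were closest in level to each member were found by the Euclidean distance of log2 CPM over the 2 libraries, which is a likeness in level only. Mir99a, at 120793 and 122659 CPM, was the closest such gene to both miR-10 genes, at distances of 1.06 from Mir10a and 0.52 from Mir10b. Mir615 was closest to Mir149 (0.077), Mir196b to Mir369 (0.19), Mir196a-2 to Mir16-1 (0.082) and Mir196a-1 to Mir3093 (0.054). For comparison, Mir10a and Mir10b lay 0.62 apart on this scale, and Mir196b and Mir615 0.75 apart.

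Of the 1973 gene rows, 1894 had a position in the GENCODE M21 annotation, and the rest were not placed. No other placed gene lay inside a Hox cluster or within 200 kb of one. Within 500 kb there were 5, of which 2 reached 10 counts in both libraries. Mir148b, 248 kb from HoxC, had 104 and 112 CPM. Mir152, 482 kb from HoxB, had 31.8 and 38.7 CPM. Mir3063, Mir688 and Mir6963 had at most 5 counts in a library. Apart from Mir196a-1, each Hox-cluster gene stood above these flanking genes in both libraries.

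The miR-10 strands have relatives outside the Hox clusters, in the miR-99, miR-100 and miR-125 genes. The stretch that each of 3 of them shares with a miR-10 strand is shown in capitals, because it covers the position that separates miR-10a from miR-10b.
miR-99a-5p, run shared with miR-10a-5p: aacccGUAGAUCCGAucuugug
miR-100-5p, run shared with miR-10a-5p: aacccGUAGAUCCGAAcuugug
miR-99b-5p, run shared with miR-10b-5p: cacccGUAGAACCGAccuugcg

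MiR-99a-5p and miR-100-5p shared runs of 10 and 11 nt with miR-10a-5p and only 5 nt with miR-10b-5p. MiR-99b-5p was the reverse, with 10 nt shared with miR-10b-5p and 5 nt with miR-10a-5p. The 3 strands have the seed ACCCGUA, which is not that of miR-10. The longest run of the miR-125 strands with either miR-10 strand was 5 nt. In the libraries, Mir100 stood at 38254 and 39965 CPM, Mir99b at 17008 and 16381, and Mir125a at 2883 and 2149. Mir125b-1 (854 and 820 CPM) and Mir125b-2 (1006 and 1053) encode the same mature strand, so their counts lack shared reads. The miR-10 genes with these 6 relatives held 54.2% ± 0.57 of all counts.

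MiR-196 is known for a nearly perfect target site in the 3′ UTR of Hoxb8, a gene of the same cluster as Mir196a-1. The site was read from the GENCODE M21 transcript and is shown with the bases opposite the seed in capitals (chr11:96284888-96284909, plus strand, GRCm38).
Hoxb8 site: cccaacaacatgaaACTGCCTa

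The strand that would pair perfectly with this site differs from miR-196a-5p by 1 of 22 bases, U5C, written with the miRNA base first and counted from its 5′ end. Among the longest annotated 3′ UTRs of 20916 genes, Hoxb8 was the only one with a site at 1 mismatch or fewer, and the next best gene had 5. The substitution lies in the seed, where the site has a G opposite the U of the miRNA. Every departure from the exact complement was counted as a mismatch, a G opposite a U included. Hoxb8 is therefore not among the exact seed matches counted next. These sequences describe the annotation, and the libraries hold no measurement of Hox mRNAs.

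Exact seed matches were counted in the first 500 nt of the 3′ UTRs that are at least that long, on the transcript strand. The miR-196 motif ACTACCT was in 8 of 34 Hox windows (23.5%) and in 1.98% of all 14294 windows. Hoxa7, Hoxa9, Hoxb7 and Hoxc8 were among them. The miR-10 motif ACAGGGT was in 1 of 34 Hox windows (Hoxa3, 2.94%) and in 4.79% of all. The miR-615-3p motif GGCTCGG was in 0 of 34 and in 1.01% of all.

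In whole 3′ UTRs of 39 Hox genes, the miR-196 motif was found 13 times in 9 genes, with 4 matches in Hoxa7 and 2 in Hoxc8, and it was in 6.10% of the 3′ UTRs of all 21022 genes. The miR-10 motif was in 4 of the 39 Hox genes and in 12.5% of all. The miR-615-3p motif was in 1 Hox gene, Hoxb4, and in 2.30% of all. These 3′ UTRs differ in length, which the windows of equal length do not. Of the Hox genes with any of the 3 motifs, none was among the 12 of paralog groups 10 to 13. A match is a description of letters and not a measured site.

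The libraries were then compared for each gene, as log2 differences of replicate 2 minus replicate 1 scaled by TMM (a scaling that assumes most genes do not differ). Mir10a was higher in replicate 2 by 0.074 (exact 95% counting interval 0.071 to 0.078) and Mir196b by 0.20 (0.18 to 0.22). Mir196a-2 was at -0.33 (-0.38 to -0.29), Mir10b at -0.27 (-0.28 to -0.27) and Mir615 at -0.24 (-0.25 to -0.22). Mir196a-1 was at -0.066 (-0.40 to 0.27), so a difference was not detectable at this depth. None of the 6 genes differed by more than 0.5 log2 units, against 52 of the 371 genes (14.0%) that reached 10 counts in both libraries. With 14.0% past that limit, a count of 0 among 6 genes is near the background.

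By median, the size of these differences was near that of all genes compared. The median size was 0.22 for the 6 genes and 0.20 for all 371. The median of the signed differences was -0.15 for the 6 genes and -0.0087 for all. The paralogs of a family moved in different directions, Mir10a up and Mir10b down, and Mir196b up and Mir196a-2 down. Both HoxC genes were lower in replicate 2. With 1 library on each side, no difference has a replicate check.

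**Figure D4:**
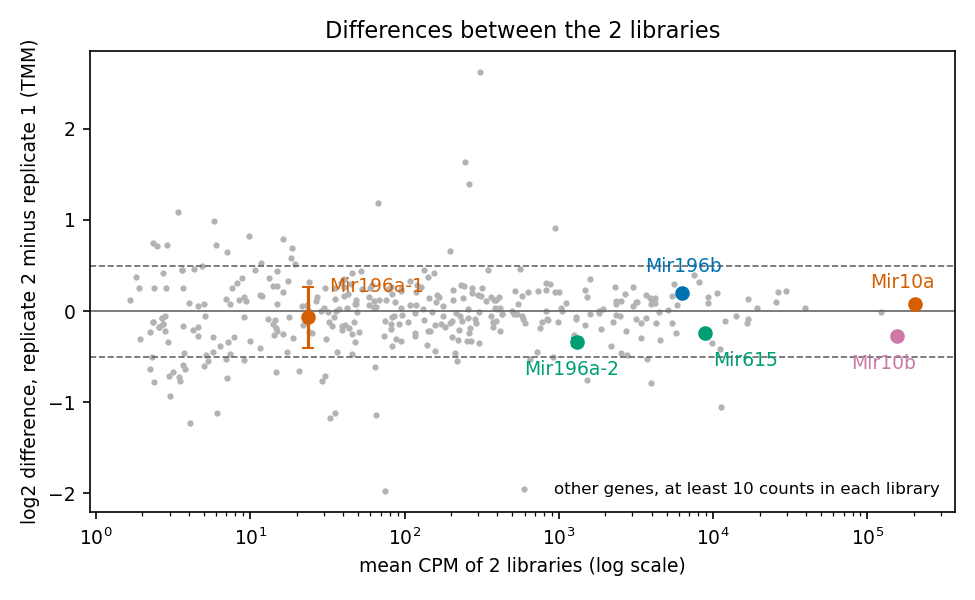
TMM-scaled log2 difference of replicate 2 minus replicate 1 against mean CPM on a log scale, with the 6 genes coloured by Hox cluster, bars for the exact 95% counting interval, and grey points for the other genes that reached 10 counts in both libraries. Dashed lines mark 0.5 log2 units either way, and all 6 genes lie between them.

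Markers of the cell types that the tissue could hold are given beside these differences. Of 9 neural marker genes, the sum was 8388 CPM in replicate 1 and 8584 in replicate 2, led by Mir137 at 5025 and 5168. Mir124a-1, Mir124a-2 and Mir124a-3, copies of the main neuronal miRNA, had 0 to 31 counts per library. Their mature strand has several genomic copies, so these counts do not measure it. Other listed markers with a copy number in their name, such as Mir133a-1, may lose reads in the same way, which was not tested. The marker sums given here are sums of uniquely mapped reads. A low sum or a count of 0 therefore does not show that a cell type is absent. The 6 mesenchymal genes summed to 8467 and 10448 CPM, with Mir214 at 648 and 1248 CPM and Mir145a at 79.9 and 67.8. The endothelial Mir126a stood at 17134 and 16019 CPM, and the 4 skeletal muscle genes summed to 119 and 378, with Mir133a-1 at 0 counts in both. The 2 erythroid genes summed to 62.8 and 35.6 CPM. The hepatic Mir122 stood at 118 and 30.7 CPM, and Mir449a of multiciliated cells at 84.1 and 532. In CPM, the mesenchymal and muscle sums and Mir449a were thus higher in replicate 2, as were Mir10a and Mir196b. The neural sum was nearly equal in the libraries. On the TMM scale, Mir137 differed by 0.0071, Mir9-3 by 0.12 and Mir219a-2 by -0.045, so the neural genes had no common direction. The erythroid sum, Mir126a and Mir122 were lower, as were Mir10b, Mir615 and Mir196a-2. For Mir196a-1 a difference was not detectable. The part of these markers in the levels and differences of the Hox-cluster genes was not tested.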

How the data were processed

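The deposited values are raw read counts per miRNA gene on mm10 with the M4 gene models of GENCODE, per the file headers. For the aligner and counter, the name is not given in the sources used here. In each table there are 3 count columns, read from the values as unstranded, same-strand and opposite-strand. Multimapping reads (28.5% and 31.0% of reads) are a class of their own in the deposited counts; that they enter no gene is read from the totals and stated by no header. The same-strand column was used and scaled to its total over gene rows. Names and positions came from GENCODE M21 (GRCm38, the same assembly), matched by identifier without version for 1894 of 1973 genes. Sequences came from RefSeq (GRCm38.p6) and GENCODE M21 transcripts.

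Errors are the SD of 2 libraries. Replicate differences used TMM factors from edgeR 4.0.16 (R 4.3.3), genes that reached 10 counts in both libraries and a pseudocount of 0.5. This procedure was tested on simulated data. Python 3.11.15 and scipy 1.17.1 were used for the rest. DESeq2 1.42.0 size factors were an alternative.

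The members and lists were chosen with earlier results of these data known. Named genes were the 6 members, genes in or near the clusters, the miR-99, miR-100 and miR-125 relatives, the cell type markers and the gene nearest in level to each member. Mir9-1, a listed neural marker, was not analysed here. Mir3063, Mir688 and Mir6963, and the Hox genes with seed matches, were named after their values were seen. Some Hox genes with matches are not reported here by name.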

Additional observations from a re-analysis of the deposited data

How the results depend on the processing

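For ratios and cluster shares the alternatives were the unstranded column and each library alone, and no ratio changed its direction. The unstranded column differed by at most 2 counts for each of the 6 genes, so it could hardly change a value. With multimapping reads added to the same-strand total, the 6 genes held 24.0% of that sum in place of 37.6% of the counts. Their levels were then 130468 CPM for Mir10a, 99001 for Mir10b, 5636 for Mir615, 4031 for Mir196b, 831 for Mir196a-2 and 15.2 for Mir196a-1. Without Mir10a in the list and the total, the other 5 genes held 21.6%. Without it in the total, Mir10b stood at 194899 CPM, Mir615 at 11098, Mir196b at 7956, Mir196a-2 at 1636 and Mir196a-1 at 29.9. Both changes follow from the larger or smaller total. With 2 libraries, the value of either alone cannot lie further than 1 SD from the mean, so leaving out a library is no test of stability. Over 7 alternatives the differences between the libraries ranged from 0.046 to 0.11 for Mir10a, -0.30 to -0.24 for Mir10b, -0.36 to -0.30 for Mir196a-2, -0.26 to -0.20 for Mir615, 0.18 to 0.24 for Mir196b and -0.094 to -0.032 for Mir196a-1. None of the 6 passed 0.5 log2 units. Over all genes, 338 of 726 passed it with a minimum of 1 count in either library, and 29 of 306 with at least 100 counts summed. Other genes with a GENCODE M21 position near the Hox clusters numbered 0 within 50 kb and 5 within 500 kb. No paired analysis was possible because there is 1 group only. Depth limits Mir196a-1 most, with 169 and 135 counts.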

Other observations

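The miR-196 seed AGGUAGU also occurs in the let-7 strands, outside their own seed window. It is shown in capitals in let-7g-5p (RefSeq, GRCm38.p6), where it covers bases 3 to 9, while the let-7 seed is GAGGUAG.
let-7g-5p: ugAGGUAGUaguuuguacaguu

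This run of 7 nt was the longest that miR-196a-5p shared with let-7g-5p or let-7a-5p. With miR-99a-5p, miR-99b-5p and miR-100-5p its longest run was 4 nt.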
